A study of Mus musculus with 17 samples.

Results

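The colon of mice whose T cells lack peroxisome proliferator-activated receptor γ (PPAR γ) was compared before and after 2 days of dextran sodium sulfate (DSS), a polymer in the drinking water that injures the colonic lining and starts an experimental colitis. All samples labelled as colon of CD4cre mice at day 0 (3 samples) and at day 2 (3 samples) were taken, which made 6 of the 17 samples in the series. The mice carried floxed PPAR γ alleles on both chromosomes together with a Cre transgene (PPAR γ flfl; CD4Cre+, labelled CD4-CRE+ and PPAR g null) in the C57BL/6J strain. Day 0 mice had received no DSS and day 2 mice had drunk water with 2.5% DSS. The Cre is driven by the CD4 promoter, which is active while T cells mature in the thymus, so the receptor is deleted in CD4+ and in CD8+ T cells. Both groups compared carry this deletion, and mice without Cre, called wild type (WT), given the same challenge (3 samples at day 0 and 3 at day 2) serve only to show where the CD4cre response differed. Total RNA from homogenized colon was hybridised to Affymetrix mouse expression arrays, whose probe sets each report 1 stretch of 1 or more transcripts. Whether an array holds the RNA of 1 mouse or of a pool is not given in the sources used here, so the p-values measure the spread between these samples, which may be technical.

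The colonic lining is renewed from stem cells at the base of crypts, whose daughters divide, move upward and differentiate. DSS first harms the epithelium, and leukocytes enter the mucosa afterwards through activated endothelium. Macrophages clear debris and fibroblasts lay down matrix during the injury and its repair. PPAR γ is a nuclear receptor that restrains inflammatory gene expression, and in T cells it is known to limit effector functions. The colon also runs a circadian clock, a loop in which Clock and Arntl switch on Per and Cry genes whose products then repress them.

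The values are log2 expression levels, so a difference of 1 is a 2-fold change, and the 54 genes of other organs that should be silent in colon set a background level of 3.46. In each sample 48.9 to 50.2% of probe sets lay above it. All 14 markers of colon epithelium, among them keratins and Cdx genes, were above background in every sample, and 4 of the 21 T cell genes measured were above it on average, with Cd3e at 2.17 or 2.18 throughout, so transcripts of the T cells in which the receptor was deleted were near the limit of these arrays. CD4cre day 0 replicate 2 and day 2 replicate 1, and the WT day 2 replicate 2, carried the transcripts of pancreatic enzymes, with a median level of the enzyme list of 13.0, 12.6 and 12.3 against at most 2.69 in every other sample. Each result below was therefore also computed without these 3 samples. The arrays' 3′ to 5′ difference for Actb, a measure of RNA integrity, was 1.20, 1.06 and 1.26 at day 0 and 1.35, 1.47 and 1.73 at day 2. That for Gapdh was -0.06, -0.08 and -0.002 at day 0 and 0.01, 0.20 and 0.58 at day 2. All day 2 samples were thus higher in both, and the part of RNA integrity in the results was not tested. A score that sets Hox genes of the distal against those of the proximal gut was 0.70, 0.50 and -0.22 at day 0 and 0.96, 0.62 and 0.38 at day 2.

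After 2 days of DSS few transcripts of the CD4cre colon differed beyond the spread between samples. The clock gene Per3 rose by a factor of 7.60 and the RNA-binding protein gene Celf5 by a factor of 2.89. The gene for the RNA-processing protein Sfpq fell. For Nol9, also an RNA-processing protein, a single probe set fell and the others changed little. Of 45037 probe sets, 8 passed limma's test at an adjusted p under 0.05 (0.0178%), of which 5 were higher (0.0111%) and 3 lower (0.00666%) at day 2, and 2981 (6.62%) had an unadjusted p under 0.05. For comparison, the same test passed 202 probe sets (0.449%) between WT day 2 and WT day 0, and 3036 (6.74%) between CD4cre day 7 and the CD4cre day 0 samples that the present comparison also uses. The 8 calls moved with the samples that entered the fit, and without the 3 samples with pancreatic transcripts 26 probe sets passed (0.0577%), 5 of them among the 8. Leaving out a single sample changed the number by more than 1.5 times in 9 cases: it became 13 or 15 without CD4cre day 0 replicate 2 or 3, 104, 27 or 31 without CD4cre day 2 replicate 1, 2 or 3, 25 or 20 without CD4cre day 7 replicate 2 or 3, and 4 without WT day 2 replicate 1 or 2. A fit on only the groups compared passed 1, and with the Hox score as a covariate 18 passed, 7 of them among the 8.

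**Figure D1:**
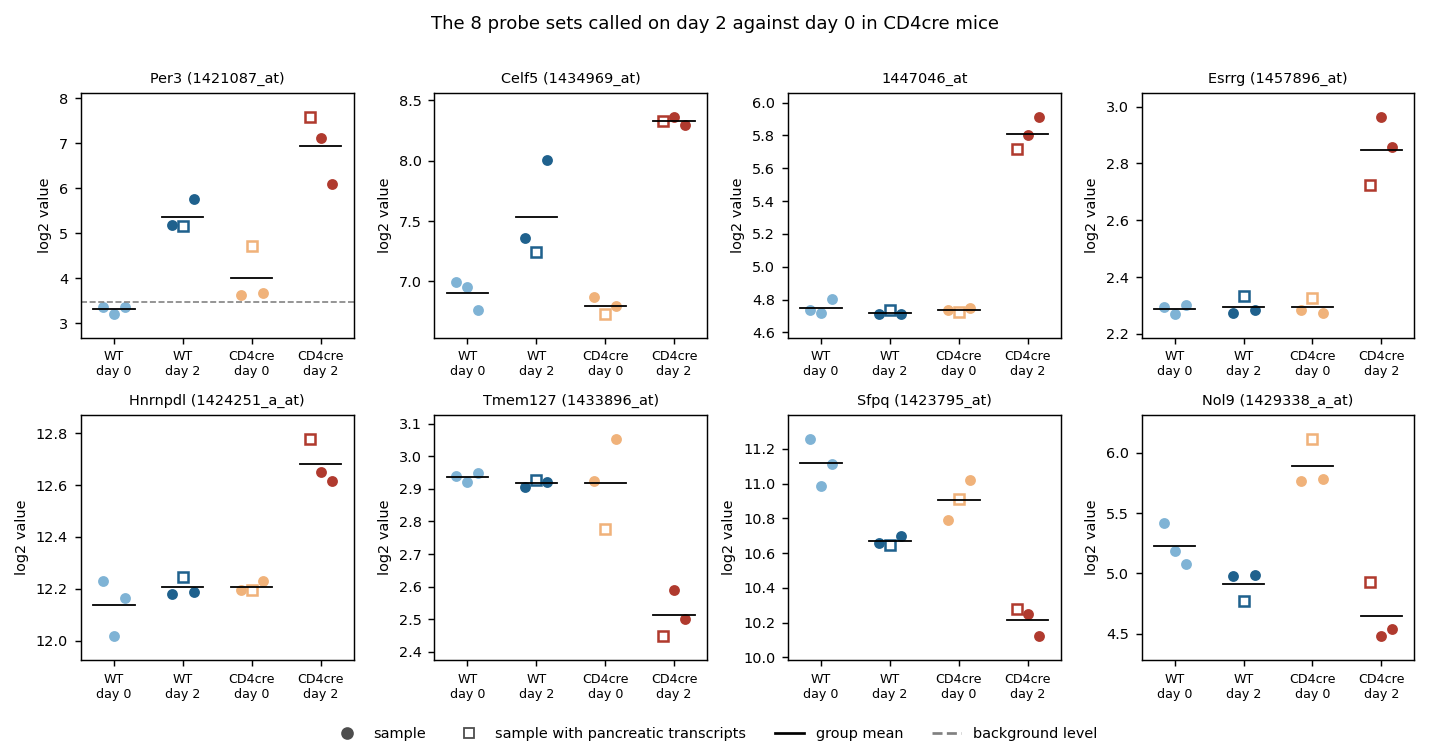
The log2 expression of the 8 probe sets that passed the test, 1 panel each, with a point for each WT or CD4cre sample at day 0 or day 2 (open squares are the samples with pancreatic transcripts), a bar for each group mean and, where it is in range, a dashed line at the background level of 3.46. The CD4cre day 2 samples lie wholly above or wholly below the CD4cre day 0 samples in every panel, and the axes of Esrrg and Tmem127 end below the background level.

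Per3 encodes a period protein, a repressor in the circadian loop. Its probe set 1421087_at read 3.63, 4.71 and 3.68 at day 0 and 7.58, 7.11 and 6.10 at day 2. The day 0 samples were close to background and every day 2 sample stood well above them, the highest day 2 value being that of a sample with pancreatic transcripts. The log2 difference was 2.93 with a standard error (SE) of 0.35, a 95% interval of 2.16 to 3.69 and an adjusted p of 0.0229, and it was 2.95 (adjusted p = 0.0148) without the samples with pancreatic transcripts. Of the other probe sets of Per3, 1441445_at, 1442243_at and 1458176_at differed by 1.19, 1.25 and 1.33 without passing the test. Without the samples with pancreatic transcripts 1441445_at and 1442243_at differed by 0.66 and 0.77. The probe sets 1421086_at and 1460662_at, which differed by -0.04 and -0.01, were at background. In CD4cre mice at day 7 the difference from the same day 0 samples was -0.64 (adjusted p = 0.279), and day 7 lay 3.57 below day 2 (adjusted p = 0.000522).

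The other clock genes are given by their place in the loop. Among the repressors, Per2 read 7.61, 7.53 and 6.36 at day 0 and 8.88, 8.91 and 8.30 at day 2, a difference of 1.53 with an adjusted p of 0.169. Cry2, a cryptochrome that acts with the period proteins, read 7.50, 7.80 and 7.50 at day 0 and 8.87, 8.63 and 8.56 at day 2, a difference of 1.09 (SE 0.20, adjusted p = 0.138). In both genes all day 2 samples were above all day 0 samples, although neither passed the test. Per1 differed by 0.63 and Cry1 by 0.50, with overlapping groups. Csnk1d, a kinase that marks period proteins for breakdown, read 10.90, 10.84 and 10.77 at day 0 and 11.11, 11.12 and 11.12 at day 2, a small difference of 0.28 (adjusted p = 0.169) between groups that did not overlap.

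The activators of the loop did not pass the test. Clock read 10.30, 9.96 and 9.77 at day 0 and 9.86, 9.83 and 9.72 at day 2, a difference of -0.21 (adjusted p = 0.754) between overlapping groups. Npas2, a partner of Arntl that can stand in for Clock, read 5.50, 4.94 and 5.31 at day 0 and 4.05, 3.70 and 4.37 at day 2, so that the groups were separate, with a difference of -1.21 (SE 0.39, adjusted p = 0.494). Arntl itself read 8.08, 7.35 and 7.24 at day 0 and 6.45, 6.89 and 7.24 at day 2, a difference of -0.70 (adjusted p = 0.754). Tef, one of the PAR bZIP factors through which the clock drives other genes, read 8.25, 8.75 and 8.77 at day 0 and 9.82, 9.65 and 9.52 at day 2, a difference of 1.07 (SE 0.26, adjusted p = 0.251). All 3 day 2 samples were above the day 0 samples for Tef, whereas its relative Dbp overlapped, with 10.76, 11.48 and 11.47 against 11.99, 11.47 and 11.77.

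Over the 16 core clock genes measured, 1 passed the test (Per3), and at an unadjusted p under 0.05 there were 4 on the higher side and 1 on the lower. The median difference was 0.28. Over all 18193 genes with a probe set of their own 4.48% were higher and 3.42% lower by that criterion and the median difference was -0.02. The mean level of the core clock list was 7.04, 7.10 and 6.98 at day 0 and 7.40, 7.41 and 7.35 at day 2, with no overlap. In WT mice the median difference of the same list was 0.40, with 3 genes that passed the test upward (0.251% of all probe sets did). At CD4cre day 7 it was 0.10, and the 6 PAR bZIP output genes, at a median of 0.41 on day 2, were at -1.50, with 1 that passed the test upward and 4 downward (3.5% and 3.24% of all probe sets did). The mice lived under a 12:12 h light-dark cycle, and the hour at which each was killed is not given in the sources used here, and the part of that hour in these values was not tested.

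**Figure D2:**
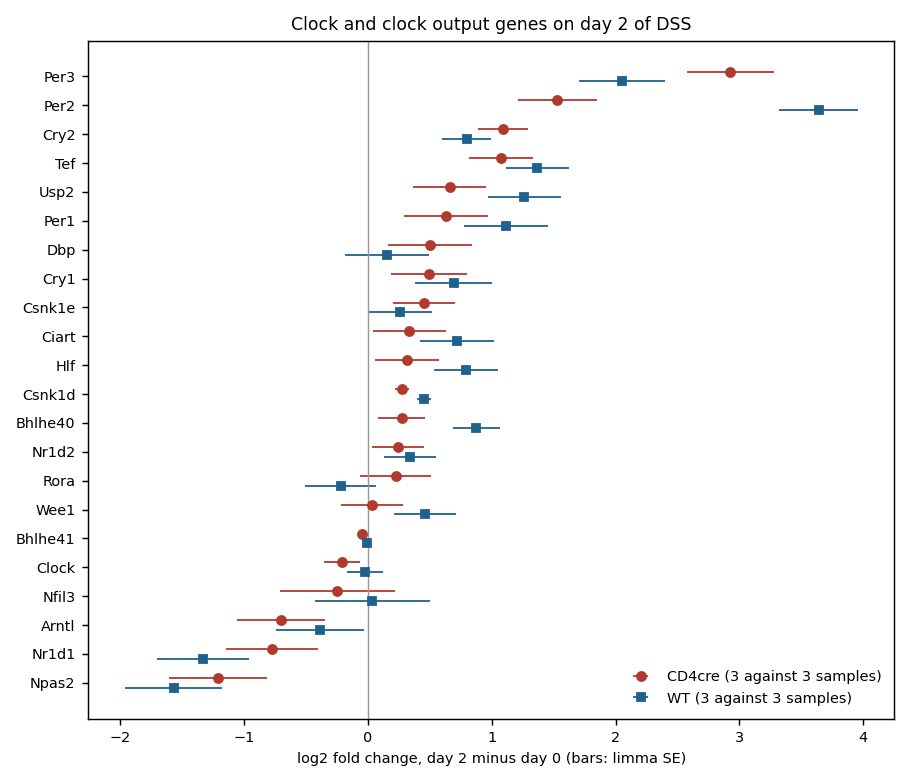
Log2 fold change, day 2 minus day 0, of each clock and clock output gene (rows, ordered by the CD4cre value), with circles for CD4cre mice, squares for WT mice and bars for limma's SE, from 3 against 3 samples. Per3 lies at 2.93 in CD4cre and 2.05 in WT mice, Per2 at 1.53 and 3.64, and Npas2, the lowest, at -1.21 and -1.57.

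The promoters of Per3 and of Tef are shown because each holds a letter pattern bound by clock factors. They are the 250 bases before the gene start in RefSeq's annotation of GRCm38.p6, 5′ to 3′ on the gene's strand, at chr4:151044666-151044915 (minus strand) for Per3 and at chr15:81802423-81802672 (plus strand, the first of 2 listed starts) for Tef. Capitals mark the D box TTATGTAA in Per3, which PAR bZIP factors and Nfil3 bind, and the E box CACGTG in Tef, which Clock and Arntl bind.
Per3: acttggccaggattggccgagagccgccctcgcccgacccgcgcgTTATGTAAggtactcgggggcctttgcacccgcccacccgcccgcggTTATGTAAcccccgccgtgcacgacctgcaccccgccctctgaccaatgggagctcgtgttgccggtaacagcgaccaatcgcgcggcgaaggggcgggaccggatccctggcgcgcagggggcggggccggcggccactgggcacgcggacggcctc
Tef: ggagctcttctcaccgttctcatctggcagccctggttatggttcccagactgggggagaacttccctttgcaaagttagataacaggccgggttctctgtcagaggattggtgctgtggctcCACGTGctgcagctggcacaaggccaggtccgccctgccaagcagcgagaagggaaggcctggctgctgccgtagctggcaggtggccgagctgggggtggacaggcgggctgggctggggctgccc
The D box matches of Per3 start 205 and 158 bases before the gene start, and the E box of Tef starts 127 bases before it. Both strands were searched, for TTATGTAA or TTACGTAA and for CACGTG. The counts over genes take RefSeq's whole window of 300 bases, which adds the 50 bases after the start to those shown, at every start listed for a gene. A D box was found in 1 of the 13 core clock genes with a listed promoter, which was Per3, and in 1.23% of the 27025 genes with a promoter. An E box was found in 4 of the 13 (30.8%) and in 8.09% of all genes. These matches describe the letters in the window and do not show binding.

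Among the remaining called genes, those for RNA-binding proteins moved in both directions. Celf5, a regulator of splicing best known from neurons, read 6.87, 6.73 and 6.79 at day 0 and 8.33, 8.36 and 8.29 at day 2. The replicates lay within 0.2 of each other in both groups, far closer than the groups, and the difference was 1.53 (SE 0.17, adjusted p = 0.0133). Without the samples with pancreatic transcripts it was 1.50 with an adjusted p of 0.0686, so it no longer passed. At CD4cre day 7 Celf5 differed from day 0 by -0.21, and it was 1.74 lower than at day 2 (adjusted p = 0.000522).

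Hnrnpdl, a nuclear protein that binds AU-rich RNA, read 12.20, 12.20 and 12.23 at day 0 and 12.78, 12.65 and 12.62 at day 2. It was among the brightest probe sets and rose by 0.47 (SE 0.06, adjusted p = 0.0345), or 0.42 with an adjusted p of 0.151 without the samples with pancreatic transcripts. Its 6 other probe sets differed by 0.12 to 0.52 without passing the test. Sfpq, a splicing factor and a core protein of paraspeckles, read 10.79, 10.91 and 11.02 at day 0 and 10.28, 10.25 and 10.12 at day 2. Every day 2 sample was lower, with a difference of -0.69 (SE 0.09, adjusted p = 0.0292), and -0.72 (adjusted p = 0.121) without the samples with pancreatic transcripts. Its 5 other probe sets all had the same sign, from -0.29 to -0.61, and none passed the test.

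Nol9, a polynucleotide kinase that processes ribosomal RNA in the nucleolus, read 5.76, 6.11 and 5.78 at day 0 and 4.93, 4.48 and 4.54 at day 2. The groups were separate and Nol9 fell by 1.24 (SE 0.14, adjusted p = 0.0133), but its 4 other probe sets differed by only -0.19 to 0.13, so the difference was seen at 1429338_a_at alone. At CD4cre day 7 the difference from day 0 was -0.94 (adjusted p = 0.00268). The probe set 1447046_at, which the annotation used here pairs with no gene symbol, read 4.74, 4.73 and 4.75 at day 0 and 5.71, 5.81 and 5.91 at day 2. It had the lowest adjusted p of the comparison, 0.00118, for a difference of 1.07 (SE 0.08). Its day 0 values had a standard deviation of only 0.01, and whether 1447046_at detects a transcript at that level was not tested.

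Esrrg, the orphan nuclear receptor ERR γ, and Tmem127, a membrane protein of the endosomal system, passed the test at levels where the array cannot tell a transcript from none. Esrrg 1457896_at read 2.28, 2.33 and 2.27 at day 0 and 2.72, 2.96 and 2.86 at day 2, an increase of 0.55 (adjusted p = 0.00242) that lay wholly under the background level. Its brighter probe set 1455267_at read 4.93, 5.67 and 3.32 and then 5.59, 5.24 and 3.89, with a difference of 0.27 and overlapping groups. Tmem127 1433896_at, at 2.92, 2.78 and 3.05 and then 2.45, 2.59 and 2.50, fell by 0.40 (adjusted p = 0.0469), whereas 1433895_at, which reports the same gene well above background at 9.36 to 9.74, differed by 0.21 (adjusted p = 0.754).

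Genes of mitosis had lower levels at day 2 across the list, though no single gene passed the adjusted test. None of the 31 measured passed limma's test, 27 were lower at an unadjusted p under 0.05 (87.1%, against 3.42% of all genes), none was higher, and all 31 had a negative difference, from -1.83 to -0.06 with a median of -0.97. In 24 of them every day 2 sample was below every day 0 sample, which held for 13.1% of all genes. The median was -0.69 without the samples with pancreatic transcripts, with 5 genes lower at an unadjusted p under 0.05 against 2.46% of all genes. In bulk RNA fewer dividing cells and less of these RNAs per cell cannot be told apart.

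Ect2, an exchange factor that places the cleavage furrow of dividing cells, had the clearest separation. It read 9.06, 9.09 and 8.96 at day 0 and 7.39, 7.78 and 7.60 at day 2, a difference of -1.45 (SE 0.25, adjusted p = 0.131). Ube2c, the ubiquitin-conjugating enzyme of the anaphase-promoting complex, read 9.95, 9.81 and 9.06 and then 7.47, 8.65 and 8.47, a difference of -1.41 (adjusted p = 0.277). Nuf2, a kinetochore protein, read 7.34, 7.04 and 6.23 and then 5.57, 5.70 and 5.41, a difference of -1.31 (adjusted p = 0.233). Day 0 replicate 3 was the lowest of its group for Ect2, Ube2c and Nuf2, and it was still above all day 2 samples.

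Other genes of dividing cells are given too, of which Aspm, Smc2 and Cdca8 are not in the list. Aspm, Kif20a, Smc2 1429658_a_at and Cdca8 1428480_at were named among the largest falls by a rule that requires separate groups. Their separation is therefore no further evidence. Aspm, which shapes spindle poles, read 6.75, 6.60 and 5.67 and then 4.65, 4.35 and 4.27, a difference of -1.92 (adjusted p = 0.219). Kif20a, a kinesin of the central spindle, read 6.80, 7.00 and 5.63 and then 3.80, 5.33 and 4.80, a difference of -1.83. Mki67, the proliferation marker Ki-67, read 10.43, 10.20 and 9.39 and then 9.03, 9.27 and 9.18, a difference of -0.85 (adjusted p = 0.649). In Aspm, Kif20a and Mki67 day 0 replicate 3 was the lowest of its group. The condensin subunit Smc2 differed by -1.64 at 1429658_a_at, by -0.85 at its brightest probe set 1448635_at and by 0.03 at the dim 1429659_at. The chromosomal passenger protein gene Cdca8 differed by -1.70 at 1428480_at and by -1.09 at its brightest probe set 1436847_s_at, with no overlap at either.

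**Figure D3:**
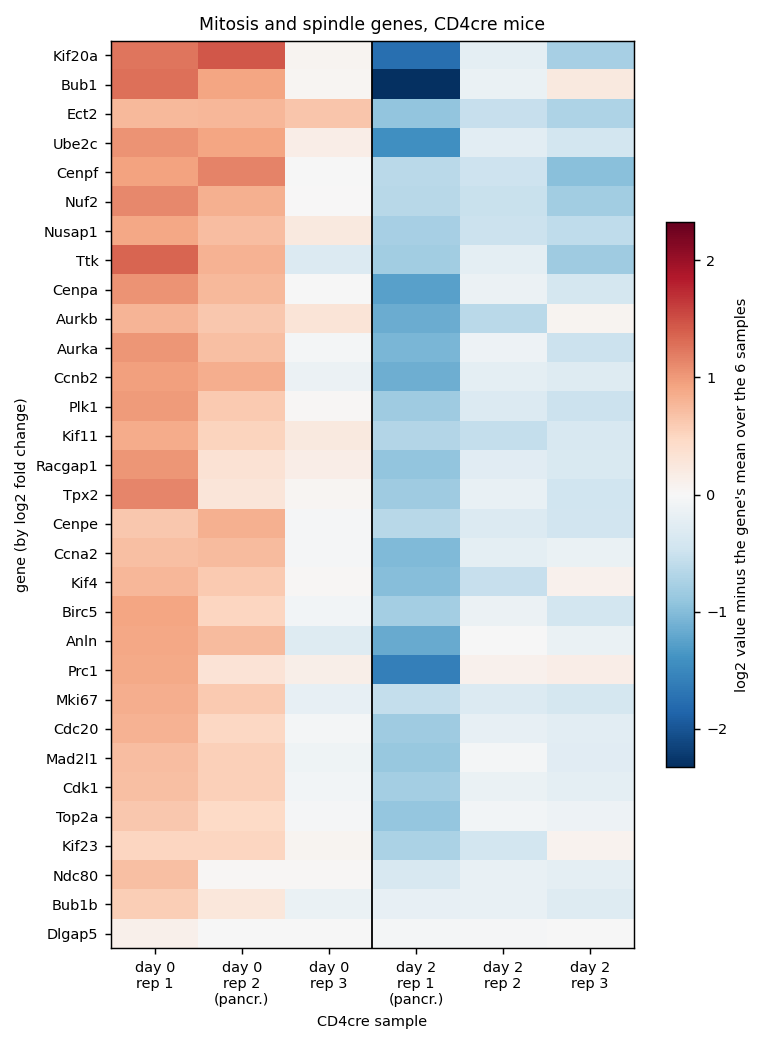
Heat map of the 31 mitosis genes (rows, ordered by log2 fold change) in the 6 CD4cre samples (columns, day 0 left of the line and day 2 right), coloured by the log2 value minus the gene's mean over these samples, red above and blue below it. Day 0 replicates 1 and 2 are red for most genes, day 0 replicate 3 is near white, and day 2 replicate 1, with pancreatic transcripts, is the darkest blue.

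The promoters of Ect2 and Ube2c are shown because genes of the late cell cycle often carry CCAAT boxes, bound by NF-Y, together with a cell cycle homology region (CHR), TTTGAA, bound by the DREAM and MuvB complexes. Both sequences are the 250 bases before the gene start in GRCm38.p6 from RefSeq, at chr3:27153879-27154128 (minus strand, the first of 2 listed starts) for Ect2 and chr2:164769679-164769928 (plus strand) for Ube2c, with matches to either pattern on either strand in capitals.
Ect2: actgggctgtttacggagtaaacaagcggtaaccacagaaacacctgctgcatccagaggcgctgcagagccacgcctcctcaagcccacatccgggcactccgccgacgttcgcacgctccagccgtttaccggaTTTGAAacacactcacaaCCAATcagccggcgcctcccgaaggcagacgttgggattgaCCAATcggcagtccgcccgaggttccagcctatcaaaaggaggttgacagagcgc
Ube2c: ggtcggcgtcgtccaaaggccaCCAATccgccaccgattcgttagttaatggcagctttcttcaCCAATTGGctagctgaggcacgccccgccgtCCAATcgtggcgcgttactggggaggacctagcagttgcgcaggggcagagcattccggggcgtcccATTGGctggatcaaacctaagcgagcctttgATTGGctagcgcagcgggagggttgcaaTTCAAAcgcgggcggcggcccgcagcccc
Ect2 holds CCAAT 96 and 55 bases and TTTGAA 114 bases before the start. Ube2c holds 6 CCAAT matches over both strands, of which a pair overlaps in 1 run of capitals, and 1 TTTGAA match on the opposite strand, 29 bases before the start. Over the whole windows of 300 bases, of the 26 mitosis genes with a listed promoter, 20 held CCAAT and 20 held TTTGAA (76.9% for each), against 41.1% and 20.2% of all 27025 genes and 42.0% and 15.7% of the 14452 genes that the array measures. Nuf2 held neither in its window.

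Genes of DNA replication, which act before mitosis, stood apart from the mitosis list in size. Of 26 measured, none passed limma's test and the median difference was -0.19. At an unadjusted p under 0.05, 2 were lower and none higher, against 3.42% and 4.48% of all genes. Mcm4, a subunit of the replicative helicase, read 9.62, 9.62 and 9.39 and then 9.03, 9.21 and 8.96, a difference of -0.48. Pcna, the sliding clamp, read 12.35, 12.24 and 12.15 and then 11.49, 12.08 and 11.97, a difference of -0.40. Both were lower in all day 2 samples. The median of the replication list was -0.06 without the samples with pancreatic transcripts and -0.60 in WT mice.

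Among crypt stem cell and Wnt target genes, 5 of 17 were lower at an unadjusted p under 0.05 (3.42% of all genes were), none was higher, none passed limma's test, and the median was -0.27. Axin2, a feedback inhibitor induced by Wnt signalling, read 5.89, 6.19 and 6.41 and then 5.15, 5.83 and 4.83, a difference of -0.89 (adjusted p = 0.328). Lgr5, the receptor that marks crypt base stem cells, read 5.61, 6.50 and 7.28 and then 5.07, 5.12 and 4.89, a difference of -1.44 (adjusted p = 0.678). Sox9, a transcription factor of the crypt base, read 8.15, 8.23 and 8.44 and then 7.86, 7.84 and 6.94, a difference of -0.73. All day 2 samples were below all day 0 samples for each of Axin2, Lgr5 and Sox9, with the day 0 samples of Lgr5 spread more widely than the gap. At CD4cre day 7 Lgr5 was at -3.28 from day 0 (adjusted p = 0.00766). Without the samples with pancreatic transcripts 2 of the 17 genes were lower at an unadjusted p under 0.05 (2.46% of all genes were) and the median was -0.10.

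Macrophage genes had mostly positive differences at day 2, and none passed the test. Of 23 monocyte and macrophage genes, none passed limma's test, 5 were higher and none lower at an unadjusted p under 0.05 (21.7%, against 4.48% of all genes), and 12 had all day 2 samples above all day 0 samples (7.34% of all genes did). The median difference was 0.41, and 0.58 with 4 genes at an unadjusted p under 0.05 without the samples with pancreatic transcripts, against 4% of all genes. Cd68, a lysosomal protein of macrophages, read 5.92, 5.40 and 5.14 and then 6.64, 7.44 and 7.88, a difference of 1.84 (adjusted p = 0.204). Aif1, a calcium-binding protein of macrophages, read 6.96, 6.38 and 6.54 and then 7.37, 7.34 and 7.80, a difference of 0.88. Mrc1, the mannose receptor of resident macrophages, read 8.50, 8.36 and 8.51 and then 9.04, 8.98 and 9.39, a difference of 0.67 (adjusted p = 0.5). The groups were separate in each, which for Cd68 the rule that named it among the largest rises required, whereas Spi1 and Cd163 differed by -0.05 and -0.01. The mean level of the list was 6.76, 6.59 and 6.71 at day 0, 6.91, 7.17 and 7.49 at day 2 and 8.69, 9.73 and 8.60 at CD4cre day 7, when 21 of the 23 genes passed the test upward (3.5% of all probe sets did).

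Genes by which leukocytes attach to and cross endothelium did not pass the test at day 2. The study followed 7 markers for this step, chosen on these samples, so they are not independent evidence of a direction. None passed limma's test, and 1 was higher at an unadjusted p under 0.05 (4.48% of all genes were). In 5 (Selp, at background, among them) day 2 samples lay wholly above day 0, as in 7.34% of all genes. The median was 0.45. Vcam1, the endothelial ligand of α4 integrins, read 7.79, 7.86 and 7.27 and then 8.18, 8.73 and 8.92. Icam1, the ligand of β2 integrins, read 5.27, 5.38 and 4.89 and then 5.53, 5.46 and 5.75, a difference of 0.40. Itgb2, the β2 integrin chain of leukocytes, read 6.10, 5.92 and 5.57 and then 6.13, 6.45 and 6.75, a difference of 0.58. The integrin chain Itgax differed by 0.45, Itgav by 0.34 at its brightest probe set and by -0.11 at 1421198_at, and Madcam1, which guides gut-homing lymphocytes, was at least 1.02-fold higher than a day 0 level at background. P-selectin (Selp) was at background in both groups and shows no direction. At CD4cre day 7 all 7 passed the test upward (3.5% of all probe sets did) with a median of 2.47.

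The cytokines of acute colitis were still low at day 2. Il1b, the inflammatory cytokine of myeloid cells, read 3.76, 4.04 and 3.37 and then 4.31, 4.33 and 5.0, a difference of 0.82 between separate groups near background, against 6.67 at CD4cre day 7. Il6 was at background at day 0 and day 2 and differed by 6.62 at day 7. Socs3, a feedback inhibitor induced by STAT3, differed by 0.06 at day 2 and 4.74 at day 7. Il1rn, which blocks the interleukin 1 receptor, read 7.52, 7.18 and 5.54 and then 8.42, 8.65 and 8.65, a difference of 1.83 (adjusted p = 0.631) to which day 0 replicate 3 contributed most. Csf1, the growth factor of macrophages, read 5.68, 5.69 and 5.32 and then 6.34, 6.55 and 6.30, a difference of 0.83.

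Chemokines went both ways. Of 27, at an unadjusted p under 0.05, 2 were on the lower side and 1 on the higher, and none passed limma's test. Over all genes 3.42% were lower and 4.48% higher at that p. Ccl11, the eosinophil chemokine eotaxin, read 10.17, 9.70 and 9.91 and then 8.08, 8.90 and 9.30, a difference of -1.17 (adjusted p = 0.685). Ccl8, a monocyte chemokine, read 8.41, 7.68 and 8.19 and then 8.29, 9.40 and 10.15, a difference of 1.18 with overlapping groups. Neutrophil genes were mostly silent, with 2 of 16 above background, none at an unadjusted p under 0.05 in either direction and none past limma's test. The same held for T cell genes, among which Cd4 read 3.46, 3.51 and 3.51 and then 3.42, 3.13 and 3.74. Interferon-stimulated genes had a median of 0.29, with 18 of 23 positive, and none passed limma's test. At an unadjusted p under 0.05, 1 was higher (4.48% of all genes were).

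All 23 fibroblast and matrix genes had a positive difference, with 5 higher at an unadjusted p under 0.05 (4.48% of all genes were), none past limma's test, 13 wholly above day 0 (7.34% of all genes were), and a median of 0.51. Mmp2, a gelatinase of fibroblasts, read 8.93, 8.90 and 8.61 and then 9.37, 10.08 and 10.03, a difference of 1.02 (adjusted p = 0.53). Col1a2, a chain of type I collagen, read 12.07, 12.01 and 11.65 and then 12.54, 12.56 and 12.80, a difference of 0.73. Pdgfra, the growth factor receptor that marks fibroblasts, read 10.01, 9.81 and 10.04 and then 10.29, 10.61 and 10.75, a difference of 0.60. All day 2 samples were higher for these genes, and day 2 replicate 1, with pancreatic transcripts, was the lowest of its group. Mmp3, the stromelysin released in inflammation, read 3.16, 2.88 and 2.70 and then 4.34, 4.98 and 4.80, so it was at least 2.37-fold higher than background, and it differed by 8.30 at CD4cre day 7.

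The matrix list was not alone among genes of the colon wall. All 11 endothelial genes and all 11 smooth muscle genes were positive, with medians of 0.38 and 0.25 and none past limma's test. At an unadjusted p under 0.05, 0 and 1 were higher, against 4.48% of all genes. Without the samples with pancreatic transcripts smooth muscle genes had a median of 0.48 and the matrix list a median of 0.65. In that fit 5 and 3 of their genes were higher at an unadjusted p under 0.05, against 4% of all genes. The adipocyte hormone gene Adipoq varied from 3.67 to 9.32 at day 0 and from 6.53 to 9.89 at day 2, and the part of the tissue around the mucosa in the matrix values was not tested. In WT mice the median of the matrix list was 0.10. Of its genes 1 was further up in CD4cre than in WT mice at an unadjusted p under 0.05, against 2.51% of all genes.

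**Figure D4:**
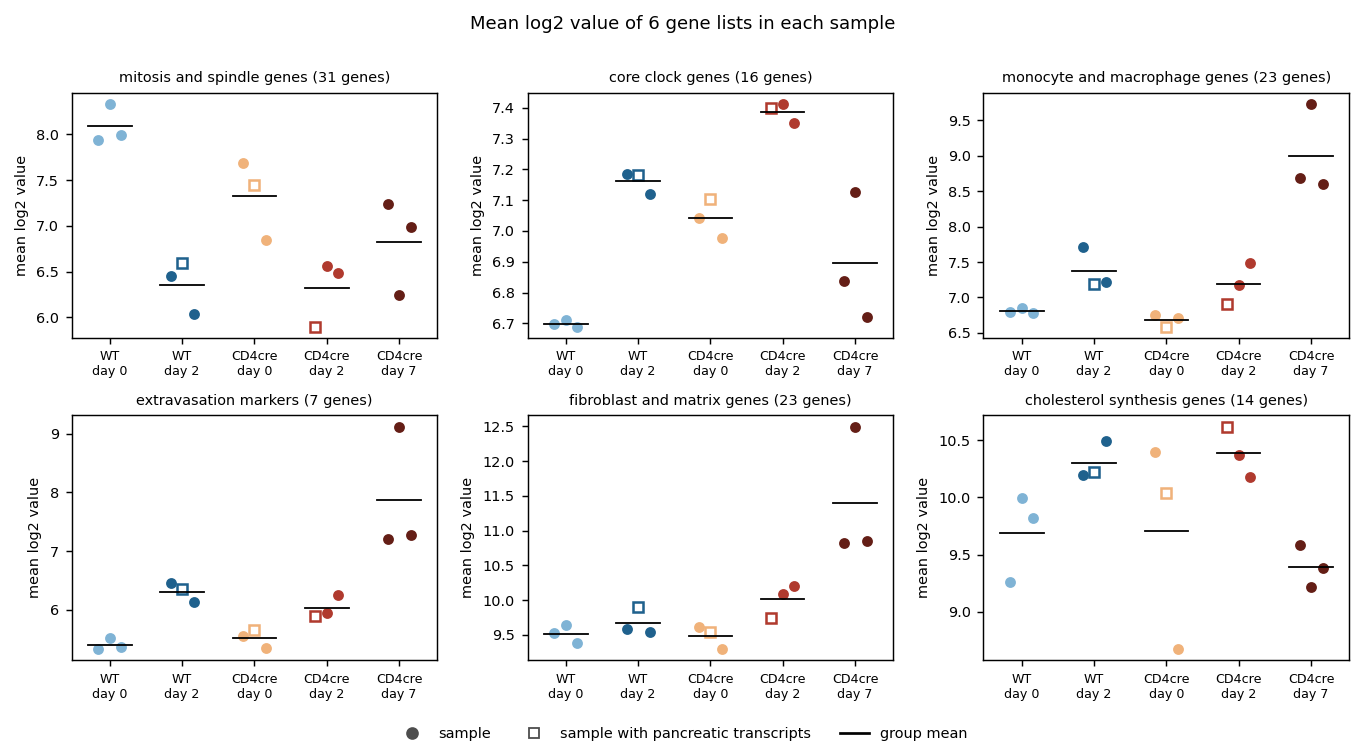
Mean log2 value of 6 gene lists, 1 panel each, with a point for each sample of WT mice at day 0 and day 2 and of CD4cre mice at day 0, 2 and 7 (open squares are the samples with pancreatic transcripts) and a bar for each group mean. In CD4cre mice the mitosis list is lower at day 2, at 5.90 to 6.57 against 6.85 to 7.69, the core clock list is higher, at 7.35 to 7.41 against 6.98 to 7.10, and day 0 replicate 3 lies apart for cholesterol synthesis.

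Genes that colon epithelium uses for lipid synthesis, transport and cell junctions did not pass the test. All 14 cholesterol synthesis genes measured were positive with a median of 0.67, 3 were higher at an unadjusted p under 0.05 (4.48% of all genes were) and none passed limma's test, but the mean of the list was 10.39, 10.03 and 8.68 at day 0 and 10.62, 10.37 and 10.18 at day 2, so that most of the difference came from day 0 replicate 3. Dhcr7, which makes cholesterol in the last step, read 8.46, 8.41 and 7.79 and then 9.10, 8.89 and 8.85, a difference of 0.73 (adjusted p = 0.253) with separate groups. Fdft1, squalene synthase, read 12.00, 11.51 and 9.92 and then 12.31, 12.04 and 12.06, a difference of 0.99.

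Among colon epithelium markers, 3 of 14 were higher at an unadjusted p under 0.05, against 4.48% of all genes, and none passed limma's test. Gpa33, an antigen of the intestinal epithelial surface, read 9.48, 9.33 and 9.51 and then 9.95, 10.05 and 10.17, a difference of 0.62 (adjusted p = 0.367), and the keratins Krt19 and Krt8 differed by 0.42 and 0.30. Of 22 ion and water transport genes none was at an unadjusted p under 0.05 in either direction, none passed limma's test and the median was 0.23. Slc26a3, the chloride and bicarbonate exchanger of surface colonocytes, had its largest difference at 1453151_at, which read 3.09, 2.63 and 2.41 and then 6.34, 4.16 and 5.32, at least 3.51-fold higher (adjusted p = 0.0967). Its bright probe set 1429467_s_at read 13.68, 13.85 and 12.03 and then 14.15, 13.98 and 13.97, a difference of 0.85 (adjusted p = 0.754). The day 2 samples were above day 0 at both, which for 1453151_at the rule that named it among the largest rises required. Cldn4, a claudin that seals the paracellular path, read 6.68, 7.94 and 7.24 and then 7.65, 8.12 and 8.90, a difference of 0.94 with overlap.

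Of 16 glycolysis and hypoxia genes 3 were higher at an unadjusted p under 0.05 (4.48% of all genes were), none passed limma's test and the median was 0.14. Aldoa, a glycolytic aldolase, read 12.34, 12.52 and 12.66 and then 12.82, 12.93 and 12.92, a difference of 0.38 with separate groups, and Pgk1 and the carbonic anhydrase gene Car9 differed by 0.31 and 0.50. The citrate cycle list and the list of PPAR receptors and lipid targets both had a median of 0.00 with no gene at an unadjusted p under 0.05 and none past limma's test. Pparg read 9.82, 9.70 and 10.62 and then 9.83, 10.11 and 10.40, a difference of 0.07 (adjusted p = 0.98), and with T cell genes near background this level does not check the deletion.

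**Figure D5:**
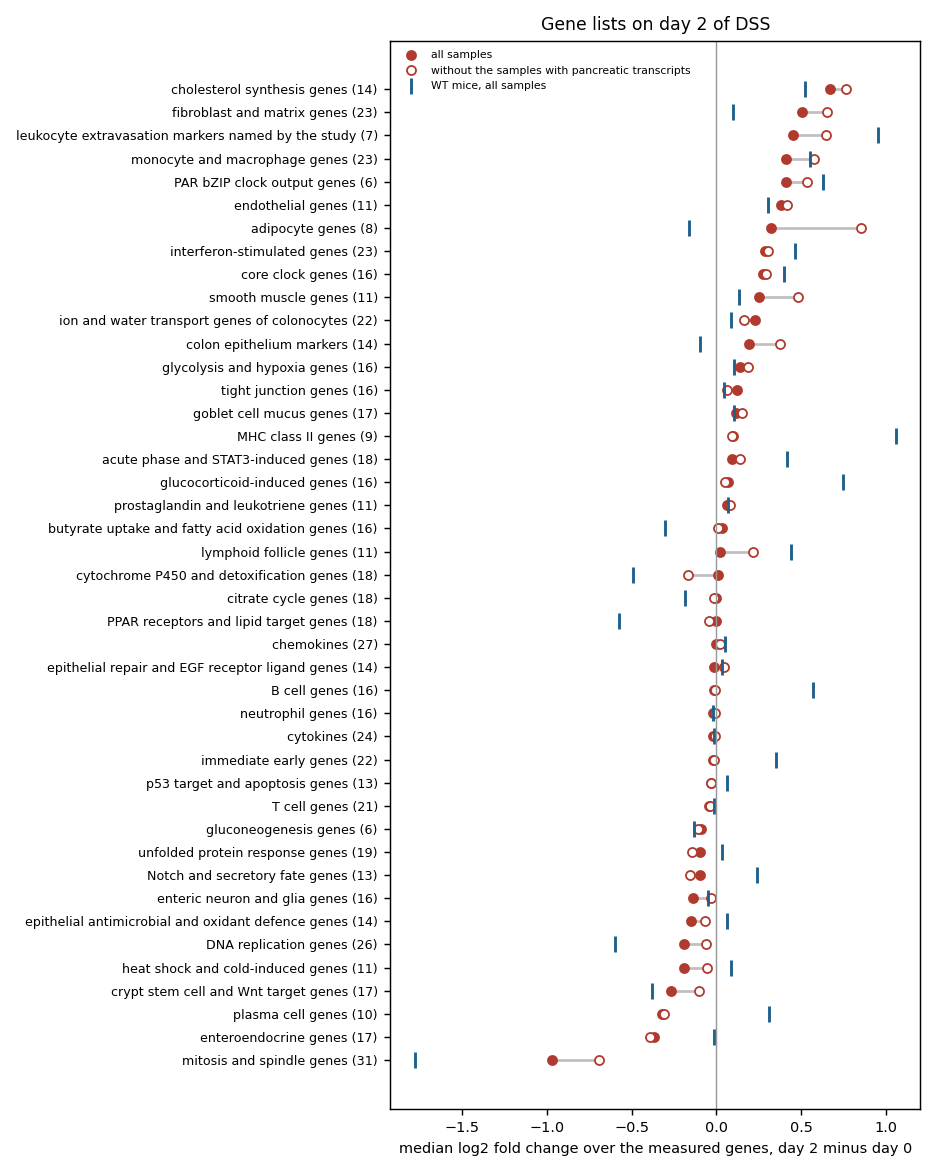
Median log2 fold change, day 2 minus day 0, over the measured genes of each list (rows, number of genes in brackets), with filled circles for all CD4cre samples, open circles for CD4cre without the samples with pancreatic transcripts and blue bars for WT mice. The mitosis list is the lowest of those drawn, at -0.97 with all CD4cre samples, -0.69 without those samples and -1.78 in WT mice.

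Several single genes with large differences belong to none of these groups. Ifitm1, an interferon-induced membrane protein that restricts viral entry, read 8.01, 8.43 and 8.33 and then 9.74, 9.86 and 10.09, a difference of 1.64 (adjusted p = 0.138), against 3.64 (adjusted p = 0.000174) at CD4cre day 7. Egr1, an immediate early transcription factor, read 7.04, 7.54 and 6.21 and then 7.87, 8.16 and 9.58, a difference of 1.61 (adjusted p = 0.422). Rps4l, a ribosomal protein S4 paralog whose probes may share sequence with its relatives, read 6.27, 6.41 and 6.72 and then 8.71, 7.78 and 8.11, a difference of 1.74 (adjusted p = 0.0776). The day 2 samples were separate from day 0 in each, which the rule that named them among the largest rises required.

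Slc6a4, the serotonin transporter of enterocytes, read 2.68, 3.43 and 2.59 and then 5.55, 3.65 and 4.63, at least 2.21-fold higher (adjusted p = 0.259). Arap1, a GTPase-activating protein for Arf, read 3.84, 3.78 and 3.32 and then 5.43, 5.20 and 5.32, a difference of 1.67 (adjusted p = 0.251). C3ar1, the receptor of complement fragment C3a, read 4.11, 4.70 and 4.82 at 1442082_at and then 6.02, 5.60 and 7.00, a difference of 1.66 (adjusted p = 0.411), while its other probe sets were at background. None passed the test. Every day 2 sample was higher in each, which the rule that named them among the largest rises required.

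On the lower side, Hsph1, a co-chaperone of the heat shock response, read 9.10, 9.01 and 8.22 and then 6.67, 7.51 and 7.49, a difference of -1.56 (adjusted p = 0.169), and its other probe set differed by -1.05. It belongs to a list of 11 heat shock and cold-induced genes, of which 10 were negative and none passed limma's test. At an unadjusted p under 0.05, 2 of the list were lower and 1 higher, against 3.42% and 4.48% of all genes. Zbtb16, the transcription factor PLZF, read 5.13, 5.48 and 6.15 at 1439163_at and then 3.44, 4.54 and 3.77, a difference of -1.67 (adjusted p = 0.211). Its brightest other probe set above background, 1419874_x_at, differed by -0.47. Rrm2b, the p53-induced subunit of ribonucleotide reductase, read 5.98, 6.84 and 6.81 at 1437221_at and then 5.73, 4.55 and 4.63, a difference of -1.57 (adjusted p = 0.29), but its brighter probe set 1433773_at differed by -0.10, and 1437476_at and 1437222_x_at by -0.18 and -0.75, all with overlap. Day 2 was below day 0 in all samples for Hsph1 and for the named probe sets 1439163_at and 1437221_at. The rule that named them among the largest falls required this. Samd5 differed by -1.95, and Zc3h4 by -1.57 at 1457458_at and by -0.23 with overlap at the brighter 1434459_at. The immunoglobulin κ probe set 1427757_at of Igk differed by -1.85 and the others of that gene by -2.11 to -0.36. None passed the test.

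Some other lists leaned to one side without passing the test. Plasma cell genes had a median of -0.32, with 9 of 10 negative and 2 lower at an unadjusted p under 0.05, and enteric neuron and glia genes were negative in 14 of 16, with none at an unadjusted p under 0.05. Enteroendocrine genes were negative in 14 of 17, among them somatostatin (Sst), which read 7.91, 7.49 and 9.31 and then 6.79, 7.37 and 7.19, a difference of -1.12. Goblet cell mucus genes were positive in 13 of 17, with none at an unadjusted p under 0.05, and unfolded protein response genes negative in 14 of 19, with 1 lower. None of these passed limma's test. Over all genes 3.42% were lower and 4.48% higher at an unadjusted p under 0.05. The median difference over all genes was -0.02, and the share of each sign over all genes is not given here.

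The same step from day 0 to day 2 in WT mice uses other samples, so the responses could be compared. The Hox score was -0.08, 0.59 and -0.07 at WT day 0 and 1.27, 1.22 and 1.07 at WT day 2. The WT groups were thus separate in this score, and the part of position along the colon in the WT responses was not tested. The difference between the responses (CD4cre day 2 minus day 0, less WT day 2 minus day 0) passed the test for 1 probe set (0.00222%), and 1926 (4.28%) had an unadjusted p under 0.05. It was 1447046_at, which read 4.73, 4.72 and 4.80 at WT day 0 and 4.71, 4.73 and 4.71 at WT day 2, while the CD4cre values went from 4.73 to 4.75 up to 5.71 to 5.91. The difference was 1.11 (SE 0.12, adjusted p = 0.0369), and its adjusted p was 0.0804 without the samples with pancreatic transcripts. Leaving out 1 sample gave between 0 and 12 such probe sets, 0 without CD4cre day 0 replicate 1 or 3 and 12 without CD4cre day 2 replicate 1 or WT day 2 replicate 3. Without the samples with pancreatic transcripts 9 passed (0.02%). The Per3 responses, 2.93 and 2.05 (the latter with an adjusted p of 0.035), differed by 0.87 with an adjusted p of 1.

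Among the differences between the responses that did not pass the adjusted test, the values of Per2 and of the lists with most members at an unadjusted p under 0.05 are given. Per2 reached like levels at day 2 in both genotypes, 8.88, 8.91 and 8.30 in CD4cre and 8.58, 8.54 and 8.82 in WT mice, from 7.61, 7.53 and 6.36 in CD4cre and 5.02, 4.97 and 5.04 in WT mice at day 0, and the responses differed by -2.11 (adjusted p = 0.557). For mitosis genes the WT median was -1.78 with 12 genes that passed the test downward (0.198% of all probe sets did), and 6 of the 31 differences between the responses were positive at an unadjusted p under 0.05 against 2.51% of all genes. The list mean at day 0 was 7.69, 7.45 and 6.85 in CD4cre and 7.94, 8.33 and 7.99 in WT mice, and at day 2 it was 5.90, 6.57 and 6.49 and 6.45, 6.59 and 6.04, so that the genotypes overlapped at day 2 and not at day 0. Of the stem cell and Wnt list 3 of 17 differences were positive at that p, and 3 of 11 heat shock genes, 3 of 22 immediate early genes and 4 of 10 plasma cell genes were negative, against 2.32% of all genes.

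Genes that glucocorticoids induce had a median of 0.07 in CD4cre and 0.75 in WT mice. In WT mice 4 of 16 passed limma's test upward (0.251% of all probe sets did). None passed it in CD4cre mice. There 2 were lower and 0 higher at an unadjusted p under 0.05, against 3.42% and 4.48% of all genes. Tsc22d3, the glucocorticoid-induced leucine zipper GILZ, read 9.38, 9.52 and 9.33 and then 8.95, 9.24 and 8.72 in CD4cre mice, and 7.91, 8.96 and 7.93 and then 9.93, 10.07 and 10.23 in WT mice. It was lower in every CD4cre day 2 sample and higher in every WT day 2 sample, and the responses differed by -2.24 (SE 0.40) with an adjusted p of 0.408. Klf9 differed by 0.00 in CD4cre and 0.76 in WT mice, and 5 of the 16 differences between the responses were negative at an unadjusted p under 0.05, against 2.32% of all genes.

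B cell genes had a median of -0.01 in CD4cre and 0.57 in WT mice, and 7 of the 16 differences between responses were negative at an unadjusted p under 0.05, against 2.32% of all genes. Ms4a1, which encodes CD20, read 3.84, 3.81 and 3.79 and then 3.65, 3.77 and 4.14 in CD4cre mice, and 3.75, 4.03 and 4.02 and then 6.99, 6.32 and 6.62 in WT mice, and the responses differed by -2.67 (SE 0.61, adjusted p = 0.68). Genes of MHC class II, carried by B cells and other antigen-presenting cells, had medians of 0.10 and 1.06. The median of the lymphoid follicle list was 0.02 in CD4cre and 0.44 in WT mice, and the part of follicles in these values was not tested. Cldn4, with 7.92, 8.35 and 8.75 and then 6.89, 6.60 and 7.45 in WT mice, had a response 2.30 higher in CD4cre mice (adjusted p = 0.702).

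Without the 3 samples with pancreatic transcripts, which leaves 2 samples a group, 26 probe sets passed the test, 13 of them higher and 13 lower (0.0289% each). Per3, Nol9, Tmem127, 1447046_at and Esrrg were among them. The largest differences of this fit were falls of 5.87 for Sppl2a, an intramembrane protease of endosomes and lysosomes (adjusted p = 0.0148), of 3.79 for Lasp1, an actin-binding protein (adjusted p = 0.0315), and of 3.19 for Hnrnpab, an RNA-binding protein (adjusted p = 0.0428). In each, the left-out sample of day 2 did not share the fall. Sppl2a 1450459_at read 9.06, 9.75 and 10.40 at day 0 and 9.29, 3.98 and 3.75 at day 2, Lasp1 1448207_at read 6.13, 6.33 and 6.03 and then 6.15, 2.08 and 2.50, and Hnrnpab 1426114_at read 12.65, 13.22 and 13.32 and then 13.00, 9.93 and 9.67. In the same fit the other probe sets of these genes differed by -0.30 and -0.16 for Sppl2a, by -0.21 to 0.54 for Lasp1 and by -0.23 to -0.01 for Hnrnpab, so that each fall was seen at 1 probe set. Among the rises, Zfpm1, the GATA cofactor FOG1, read 3.11, 3.07 and 3.12 and then 4.62, 3.47 and 3.64, and Abhd16a, a phospholipid hydrolase, read 7.72 in all day 0 samples at 1415732_at and then 7.85, 8.14 and 8.11, while its brighter probe set 1460709_a_at differed by -0.07 in this fit. The probe set 1450100_a_at, without a symbol of its own here, read 4.27, 3.92 and 4.19 and then 3.57, 3.55 and 3.36 in CD4cre mice and had the opposite sign in WT mice, with a difference of 0.60.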

How the data were processed

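Colon RNA of 17 samples in 6 groups was measured on Affymetrix arrays. The deposited values are log2 expression, which the authors made from the scanned arrays with GCRMA in R 2.9.0, per the labels. From there, 64 control probe sets were left out and 45037 were fitted in limma 3.58.1 (R 4.3.3) as 6 group means over all 17 samples, with empirical Bayes variances and Benjamini-Hochberg adjustment within each comparison. The platform annotation gave 34945 probe sets 1 symbol, 932 several and 9160 none, which left 18193 genes, each entering a list by its brightest probe set. Background is the 95th percentile of 80 probe sets of other-tissue genes. The members, lists and tests were chosen with earlier results of these data known. Named are all calls (also of the difference between genotypes and of the fit without 3 samples), the 10 largest rises and falls with an unadjusted p under 0.01 and separate groups, the 3 members of each list with the lowest p, and genes the study follows. Some of these are given only as counts. For "at least" folds the dimmer group is set to background. Alternatives were other sample sets, covariates, scalings, weights, filters and a replicate block. Arrays give no read depth, so the number of samples limits the precision.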

Additional observations from a re-analysis of the deposited data

Results flagged for a closer look

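The probe set 1447046_at was singled out because its response to 2 days of DSS differed between CD4cre and WT mice in the test of that difference, by a log2 value of 1.11, with an SE of 0.12 and an adjusted p of 0.0369. It was higher in 3 of 3 CD4cre day 2 samples than in any CD4cre day 0 sample, and the WT samples stayed between 4.71 and 4.80 on both days. Its gene is not named by the annotation used here. Whether its near-constant CD4cre day 0 and WT values reflect a detected transcript was not tested.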

How the results depend on the processing

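The number of called probe sets between CD4cre day 2 and day 0, 8 in the fit reported, was 7 after median centring or quantile scaling and 8 with a variance trend, a filter on low values or a pancreas covariate. These were not all the same probe sets. Among the 8 were 7 of those called after median centring, 6 after quantile scaling, 7 with the trend, 5 with the filter and 7 with the pancreas covariate. It was 1 with only the groups compared, 0 with only the 9 CD4cre samples (2124 at an unadjusted p under 0.05), 26 without the samples with pancreatic transcripts, 18 with a Hox covariate, 24 with array weights, 3 with 1 probe set per gene and 19 at an adjusted p under 0.1. The fit with 1 probe set per gene held only 3 of the 8 called probe sets, and those 3 kept their call. Leaving out 1 sample gave 4 to 104.

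For the difference between the CD4cre and WT responses, 1 in the fit reported, the number was 1 after median centring, 6 with only the groups compared, 9 without the samples with pancreatic transcripts, 34 with array weights, 4 with the filter and 5 at an adjusted p under 0.1. It was 0 with a pancreas covariate, a Hox covariate, quantile scaling, a variance trend or 1 probe set per gene. Leaving out 1 sample gave 0 to 12.

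The fit reported did not pair the samples by replicate number. Same-numbered CD4cre samples had correlations of -0.20, -0.36 and 0.22 between their deviations from the group means. The largest, 0.47, was between day 0 replicate 2 and day 2 replicate 1, both with pancreatic transcripts. Such values cannot show whether the numbers pair the samples, because the pancreatic transcripts enter them. With the replicate block 2 probe sets were called for the day 2 difference and 0 for the difference between responses.

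No value changed its sign past a threshold under any alternative. The call of Per3 was lost in 8 of 29 settings, with values from 2.60 to 3.34, and those of Sfpq, Hnrnpdl and Tmem127 in 11 of 28, 15 of 29 and 17 of 27. The cause of these changes was not tested. The 3 samples a group limit what can pass the test, and transcripts near the background level of 3.46 cannot be measured.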
